A study of Mus musculus with 3 samples.

Results

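Pericytes, the mural cells wrapped around small blood vessels, made up 63 of the 26320 cells kept from a sort of mouse mammary epithelium. The cells were chosen by measured values of these same libraries: a cell was counted as a pericyte when at least 2 of the 6 genes Rgs5, Pdgfrb, Notch3, Higd1b, Des and Cspg4 were detected. It also had to carry under 2 of 6 endothelial genes, at most 2 molecules of the basal keratins Krt5, Krt14 and Krt17, and fewer than 5 molecules in each of 2 luminal gene sets. Libraries 1, 2 and 3 gave 7, 27 and 29 such cells. They were compared mainly with 8528 basal cells, the contractile myoepithelium, which carried at least 5 molecules of the same 3 keratins. Further comparisons were with 152 fibroblast-like and 82 endothelial-like cells of the same libraries.

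All 3 libraries belonged to 1 group of female FVB/NJ mice aged 10 weeks, an inbred strain, with no treatment or engineered allele named in the labels. The labels describe gland number 4 pooled from 4 mice, enzymatic digestion, staining for CD49f, EpCAM, CD31, CD45 and Ter119 and collection of live epithelial cells. The same description stands for each library, so it is not known here whether they came from separate pools of mice, and p-values measure only the spread between libraries, which may be technical. Transcripts were counted as unique molecular identifiers (UMIs), 1 per captured molecule, and levels are given as CPM, the UMIs of a gene scaled by the summed UMIs of its class in that library.

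Pericytes share the basement membrane of the capillary endothelium. Endothelial PDGF-B acting on the receptor Pdgfrb recruits them, and Notch3 is a receptor of the mural lineage. Many mural cells carry a smooth-muscle apparatus of actin, myosin and regulatory proteins with which they narrow vessels. Myoepithelial cells are keratin-bearing epithelial cells that use much of the same apparatus to squeeze milk from the gland when oxytocin binds its receptor Oxtr.

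Both cell kinds carried contractile genes, and the question here was which of them differ. The CArG box is the site at which serum response factor acts on many smooth-muscle genes. It was searched on both strands of RefSeq promoters (GRCm38.p6, 300 bases around each gene's start), by its name alone. Promoters were found for 42 of 49 contractile genes, and 6 of these genes held a match. Over promoters, 6 of 53 (11.3%) from these genes and 535 of all 32851 (1.63%) held one. The windows of the 4 matched genes that were measured well enough to test are shown because their levels in pericytes are given below. They read 5′ to 3′ along the gene, with the box in capitals.
Myl9: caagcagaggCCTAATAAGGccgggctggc
Vcl: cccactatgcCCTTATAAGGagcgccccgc
Cnn2: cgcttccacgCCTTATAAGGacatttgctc
Myl6: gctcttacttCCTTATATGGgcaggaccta
The windows lie at chr2:156775293-156775322 (plus strand, Myl9), chr14:20929161-20929190 (plus, Vcl), chr10:79988534-79988563 (plus, Cnn2) and chr10:128493040-128493069 (minus, Myl6). The boxes begin 161, 227, 56 and 50 bases before the start of the gene, outside the transcribed part. Only CC, then 6 bases of A or T, then GG counted as a match. The Acta2 window had no such exact match but does hold near matches, which were not counted. A match describes letters only, and a promoter without an exact one says nothing about binding.

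The 6 marker genes chose the cells, so their levels describe the choice and were not tested. Notch3 was detected in 55 pericytes, Pdgfrb in 43, the G-protein regulator Rgs5 in 39, the muscle intermediate filament desmin (Des) in 34, Higd1b in 11 and the proteoglycan Cspg4 in 4. Rgs5 stood at 3605, 3963 and 1727 CPM in libraries 1, 2 and 3, against a mean of 3.57 CPM in basal cells. Notch3 is less specific here: it reached 956 CPM in pericytes but also 83.2 CPM in luminal progenitor and 91.2 CPM in hormone-responsive cells. Exactly 2 markers were detected in 28 of the 63 cells, 3 in 14, 4 in 17, 5 in 4 and all 6 in 0.

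The label held for only some of the cells. Some pericyte genes outside the rule were detected, each in a minority of the cells. The potassium channel subunit Abcc9 was in 14 cells and its partner Kcnj8 in 9. The mitochondrial protein Ndufa4l2 was in 21, vitronectin (Vtn) in 16 and Cox4i2 in only 7. From the full list of such genes, given below, 10 were measured well enough to test. However, 24 cells (2, 13 and 9 in libraries 1, 2 and 3) also had at least 2 of 7 fibroblast genes. Of these, 16 had at least 3, the number that otherwise made a cell fibroblast-like. A further overlap was with epithelium, since 10 cells had at least 3 UMIs of the epithelial genes Krt8, Krt18, Krt19 and Epcam. All of these 10 had exactly 2 markers. Neither was true of 30 cells. Scrublet, which scores droplets that resemble 2 mixed cells, marked 5. The part of mixed droplets in the results was not tested beyond the alternatives given here.

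Marker lists of other cell types differed widely in the summed pericytes. All 7 fibroblast genes were detected, at a summed 845, 13216 and 4553 CPM. All 10 luminal genes were detected, at 2817 to 6035 CPM against 2597 to 3942 CPM in basal cells. Of 12 endothelial genes, 6 were at 0, and the sum was 56.3 to 309 CPM. The rule itself limited 6 of the 12, Pecam1, Cdh5, Flt1, Emcn, Egfl7 and Tie1, so their low level describes the choice. Kdr, Cldn5 and Tek, outside the rule, were among those at 0. Immune genes were at 0 for 8 of 9, as were all 6 adipocyte and all 5 erythroid genes. The fibroblast sum was highest in library 2. All 10 vascular smooth muscle genes were detected, at 5144 to 7491 CPM against 9317 to 9977 CPM in basal cells. Whether some of the 63 cells are vascular smooth muscle cells, the other mural kind, was not tested.

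Pericytes were 0.110% (exact binomial 95% interval 0.0444 to 0.227), 0.302% (0.199 to 0.439) and 0.263% (0.176 to 0.377) of kept cells in libraries 1, 2 and 3. The interval of library 1 overlaps those of the others. Intervals cover counting error only, and the sort itself can set these shares. Pericytes had a median of 1537 UMIs, basal cells 2201.5, and summed totals in pericytes were 17751, 55011 and 44585 UMIs. One UMI is therefore worth 56.3, 18.2 and 22.4 CPM, which limits every low value below. Libraries shared 77 to 146 cell barcodes in pairs, and no barcode was a pericyte in both libraries of a pair.

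Next to the threshold, 565 cells met every other condition with exactly 1 marker, 450 of them with Notch3. Acta2 stood at 603 CPM in those cells, 2162 CPM in the cells with exactly 2 markers and 3778 CPM in those with 3 or more. Epcam ran the other way, at 940, 552 and 55.6 CPM. The 30 pericytes without fibroblast or epithelial genes carried Acta2 at 5701 CPM. These are descriptions of cells the rule placed on either side.

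The contractile apparatus was carried by pericytes and basal cells and at low levels by the other classes. Smooth-muscle actin, Acta2, stood at 3493, 2363 and 3342 CPM in pericytes of libraries 1, 2 and 3 and at 4629, 6191 and 6323 CPM in basal cells. Every pericyte library was below every basal one, yet the difference (log2 fold change -0.90, 95% interval -1.72 to -0.09) did not pass the test (edgeR quasi-likelihood test, adjusted p = 0.12). Without library 1 it did (log2 fold change -1.29, adjusted p = 0.0019), and over 16 alternatives the adjusted p ran from 4.17e-12 to 0.708. The log2 fold change ran from -1.54 to -0.252 over the same alternatives. In the 30 cells without fibroblast or epithelial genes the difference was not called. Pooled over those cells, Acta2 stood at 5701 CPM, beside a mean of 5714 CPM over the basal libraries. The smooth-muscle myosin heavy chain, Myh11, stood at 901, 745 and 1637 CPM in pericytes and 964, 1191 and 1251 CPM in basal cells. The groups overlapped, and the interval of its log2 fold change, -0.72 to 0.55, lay within a 2-fold difference either way. The myosin light chain kinase Mylk averaged 1013 ± 86.0 CPM (SD, n = 3) in pericytes and 1013 ± 198 CPM in basal cells, with an interval of -0.83 to 0.86.

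**Figure D1:**
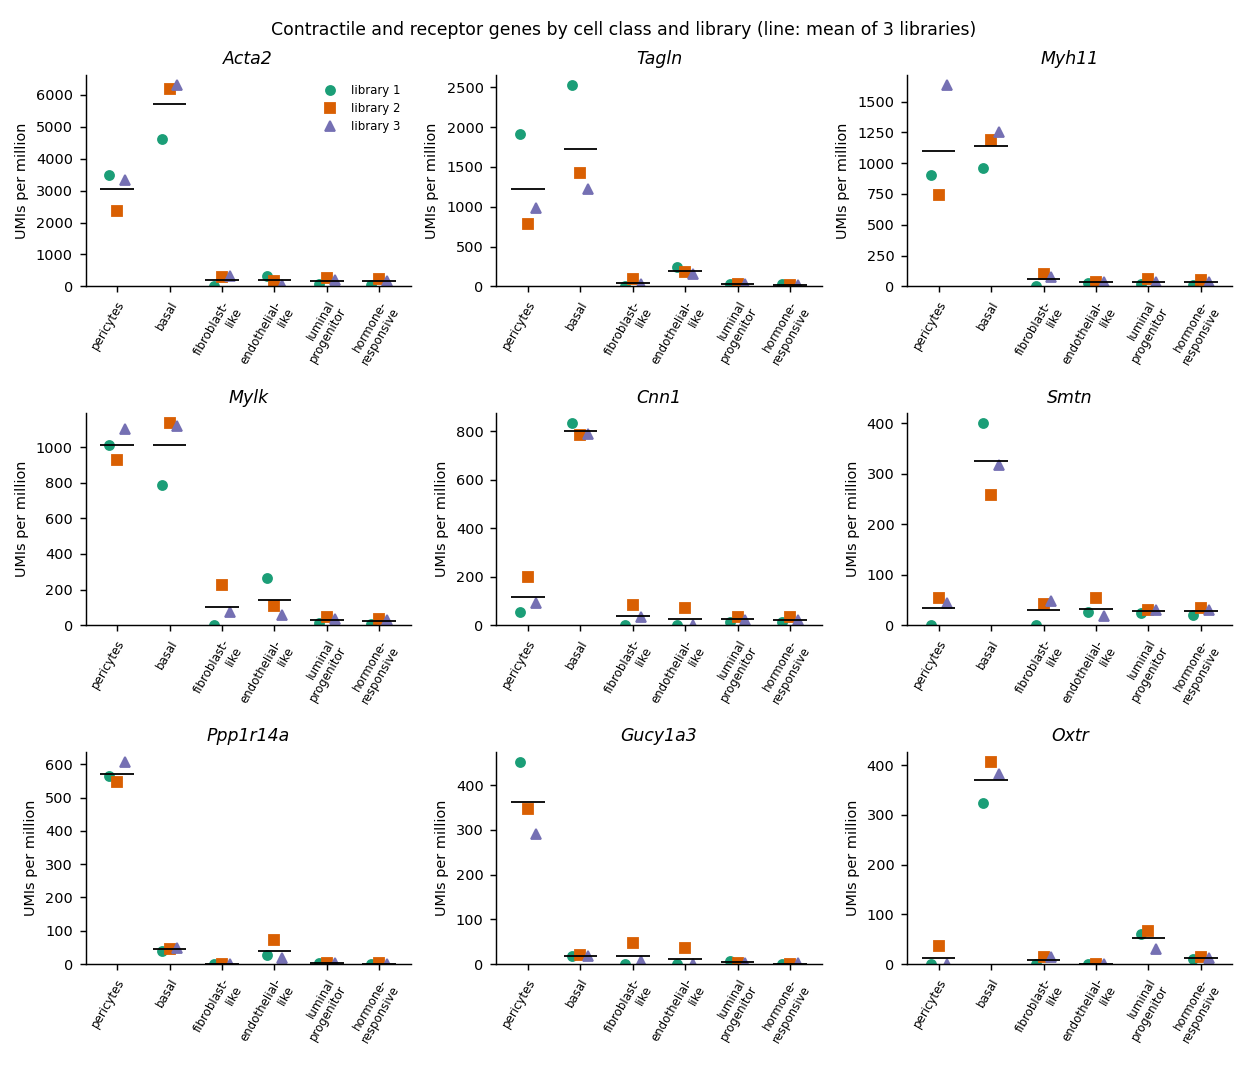
Levels of 9 contractile and receptor genes (CPM) in 6 cell classes; points are the 3 libraries and lines their mean. Acta2, Tagln, Myh11 and Mylk are high in pericytes and basal cells, Cnn1, Smtn and Oxtr stand high in basal cells, and Ppp1r14a and Gucy1a3 stand high in pericytes.

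Of 28 contractile filament genes, 19 passed the filter on low counts and could be tested against basal cells. Calling a gene required both a 2-fold change and an adjusted p (Benjamini-Hochberg, edgeR) under 0.05, and 20.7% of all 1192 tested genes met both. In the filament list 1 was higher in pericytes, 2 were lower and 16 were not called. Without library 1, 6 of 24 were lower, beside 175 of all 2508 genes tested then. The list's median log2 fold change was -0.14, beside 0.01 over all tested genes. The libraries of the 2 classes did not overlap for 6 of the 19, against 38.2% of all tested genes. For 9 of the 19 the 95% interval lay within a 2-fold difference either way, and for the others it reached beyond. In the 30 cells without fibroblast or epithelial genes, where 23.4% of all tested genes were called, 2 filament genes were higher and 1 lower of 19.

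The 2 lower genes were both regulators bound to actin filaments. Calponin 1, Cnn1, stood at 56.3, 200 and 89.7 CPM (1, 11 and 4 UMIs) in pericytes and 833, 786 and 790 CPM in basal cells, and the groups did not overlap. Its log2 fold change was -2.67 ± 0.46 (SE; edgeR, adjusted p = 0.000498), and it stayed called in all 16 alternatives. Smoothelin, Smtn, had 0, 3 and 2 UMIs in pericytes against 400, 257 and 318 CPM in basal cells (log2 fold change -2.83 ± 0.51, adjusted p = 0.000695). In the 30 cells without fibroblast or epithelial genes it was no longer called (-1.52, adjusted p = 0.0738). For each UMI of Cnn1 there were 62, 11.8 and 37.3 UMIs of Acta2 in pericytes and 5.56, 7.88 and 8.01 in basal cells. The pericyte ratios were thus above the basal ones in every library, though library 1 rests on 1 UMI of Cnn1.

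The LIM-domain protein Csrp2 was the 1 filament gene called higher, with 0, 6 and 8 UMIs in pericytes (log2 fold change 3.33, adjusted p = 0.000974). Its groups overlapped, since library 1 had none, and the call was lost without library 3 (adjusted p = 0.104) and in the cells with 3 or more markers (adjusted p = 0.381). Its relative Csrp1 stood at 676, 673 and 628 CPM against 986, 1137 and 1306 CPM, a smaller change of -0.79 (adjusted p = 0.0444). The transgelin gene Tagln (-0.50), the tropomyosins Tpm1 (-0.03) and Tpm2 (-0.48), caldesmon Cald1 (0.25) and filamin Flna (-0.06) were not called. Vcl and Cnn2, whose promoter windows are printed above, were not called either (0.08 and -0.41). Leiomodin 1, Lmod1, which nucleates actin filaments, stood at 282, 327 and 314 CPM against 189, 165 and 183 CPM without overlap (0.84, adjusted p = 0.0807). It was called in the 30 cells without fibroblast or epithelial genes (1.86, adjusted p = 0.00138).

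Of 21 genes of myosin and its control 12 were tested. In pericytes 2 were higher, 0 were lower and 10 were not called, beside 20.7% called over all tested genes, so the list was not called more often than the rest. Its median log2 fold change was 0.21. Ppp1r14a encodes CPI-17, an inhibitor of the myosin phosphatase that keeps the light chain phosphorylated. It stood at 563, 545 and 606 CPM in pericytes and 39.0, 46.1 and 47.4 CPM in basal cells (log2 fold change 3.69 ± 0.34, adjusted p = 5.147e-06). The call held in all 16 alternatives. The kinase gene Rock2, which acts on the myosin phosphatase, stood at 394, 109 and 314 CPM against 128, 71.5 and 69.7 CPM with overlap (1.55, adjusted p = 0.0146), and was lost in 6 alternatives, among them without library 1 or 3. The light chain Myl9, another gene with a printed CArG window, stood at 1070, 1927 and 2490 CPM against 660, 1145 and 1243 CPM (0.86, adjusted p = 0.0558). It passed in the cells with 3 or more markers (1.23, adjusted p = 0.00613) and in the 30 cells (1.77, adjusted p = 0.000544). The light chain Myl6 had a log2 fold change of -0.02 (interval -0.56 to 0.52).

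**Figure D2:**
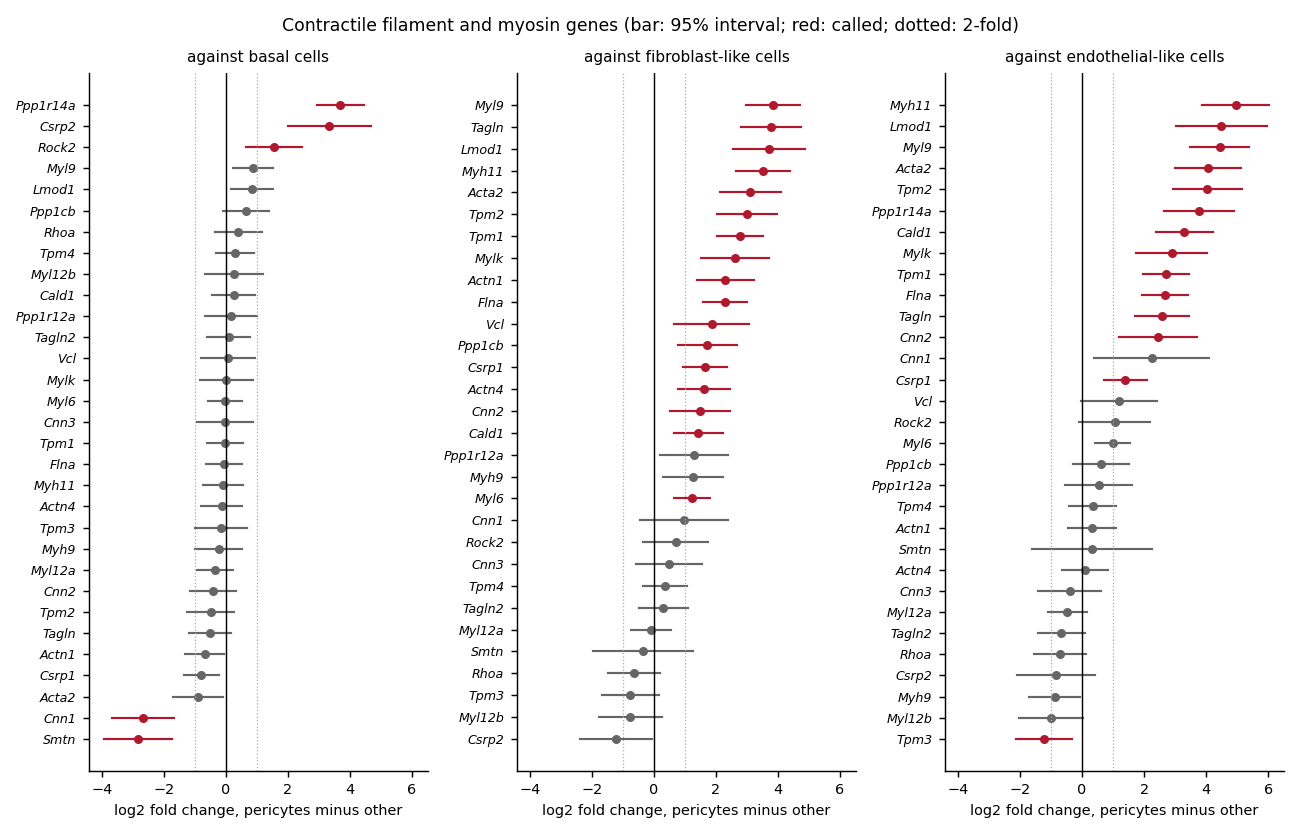
Log2 fold change of contractile filament and myosin genes in pericytes minus each other class (x axis), with 95% intervals; red marks called genes and dotted lines 2-fold. Against basal cells 31 genes are drawn and most lie near 0, with Ppp1r14a and Csrp2 at the top and Cnn1 and Smtn at the bottom. Against the other classes most called genes lie to the right; Ppp1r14a against fibroblast-like cells is not drawn because it was at 0 there.

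Summed, the 28 filament genes took 1.37%, 1.18% and 1.42% of all UMIs in pericytes and 1.80%, 1.86% and 1.88% in basal cells. The groups did not overlap. The 21 myosin genes took 0.896%, 0.945% and 1.17% in pericytes and 0.703%, 0.865% and 0.869% in basal cells, again without overlap and in the other direction. Filament genes took 0.298% in fibroblast-like, 0.399% in endothelial-like and 0.228% in luminal progenitor cells on average. In a sum of cells, fewer contractile cells and less RNA per cell cannot be told apart.

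Single cells showed that the sum covers unlike members. The filament share had a median of 1.33% per pericyte, with quartiles of 0.479% and 2.32%, and ran from 0.0639% to 6.10%. In basal cells the median was 1.86% with quartiles of 1.27% and 2.49%. Acta2 was detected in 46 pericytes, Myl9 in 44, Myh11 in 38 and Tagln in 35. The 38 cells with Myh11 had a median share of 2.23%, and the 25 without it 0.422%. Of the cells without Myh11, 9 had at least 3 epithelial UMIs, against 1 of those with it, and their median depth was 2090 against 1330 UMIs. The part of mixed cells in this spread was not tested.

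Rgs5 and Acta2 did not mark the same cells throughout. Both were detected in 30 pericytes, Acta2 alone in 16, Rgs5 alone in 9 and neither in 8. In 12 cells Acta2 had 5 or more UMIs and Rgs5 was at 0. The highest counts in 1 cell were 66 UMIs for Rgs5 and 34 for Acta2. Cells with Rgs5 had a median filament share of 1.31%, and those without it 1.69%. Rgs5 chose the cells, so this split carries no test.

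**Figure D3:**
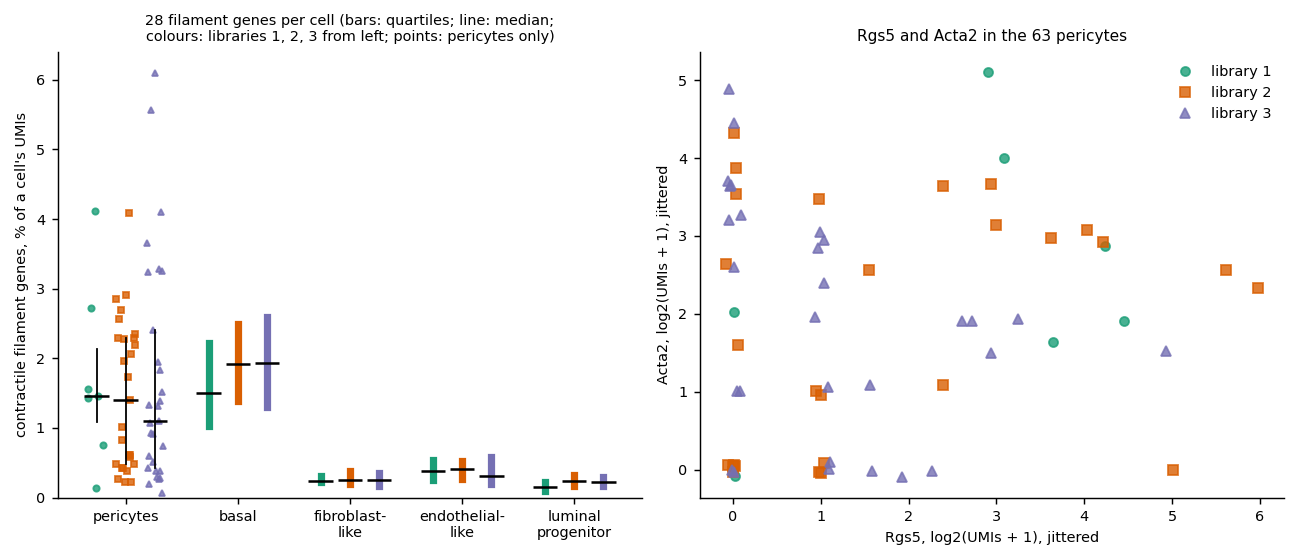
Left, percent of a cell's UMIs from 28 contractile filament genes by class and library (bars are quartiles, lines medians, points the 63 pericytes). Right, Rgs5 against Acta2 in each pericyte as log2(UMIs + 1), jittered. Pericytes spread from 0.0639% to 6.10%, and 16 of them lie at 0 on the Rgs5 axis with Acta2 above 0.

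Free RNA in the suspension can put UMIs of a gene into cells that do not make it, so shares of cells are set beside luminal cells. The source of the UMIs in luminal cells was not tested. With every cell thinned to 1000 UMIs, Acta2 was found in 63.8% of 58 pericytes (exact 95% interval 50.1 to 76.0), 92.6% of basal, 11.6% of luminal progenitor and 14.5% of hormone-responsive cells. Unthinned, the shares were 73.0%, 96.8%, 31.6% and 37.0%, at median depths of 1537, 2201.5, 3264 and 3482 UMIs. Cnn1 was found after thinning in 15.5% of pericytes (7.35 to 27.4), 51.1% of basal and 2.00% of luminal progenitor cells. At 1000 UMIs both genes were thus above the luminal shares in pericytes. At 2000 UMIs, where 18 pericytes remained, Acta2 was in 5 of them (27.8%, 9.69 to 53.5), beside 20.4% of luminal progenitor and 25.9% of hormone-responsive cells, and at that depth the interval includes both luminal shares. Most of these 18 deeper cells had at least 2 fibroblast genes or at least 3 epithelial UMIs, so this share describes mainly such cells. Among the 30 cells with neither, Acta2 was detected without thinning in 27 (90%).

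Receptors and enzymes that act on contraction differed in both directions. Oxtr, the oxytocin receptor, had 0, 2 and 0 UMIs in pericytes and stood at 325, 406 and 382 CPM in basal cells (log2 fold change -4.48, edgeR adjusted p = 0.000135). Pooled, basal cells had 22.5 times the pericyte level, with a counting interval of 6.24 to 186. Oxtr was detected in 3.17% of pericytes (0.387 to 11), 53.3% of basal cells and 13.9% of luminal progenitors without thinning. Thinned to 1000 UMIs, it was in 1 of 58 pericytes (1.72%), 30.6% of basal cells, 4.84% of luminal progenitors and 0.919% of hormone-responsive cells, so the pericyte share lay within the range of the luminal shares. The soluble guanylate cyclase subunits, which sense nitric oxide and relax smooth muscle, went the other way. Gucy1a3 stood at 451, 345 and 292 CPM against 18.9, 19.8 and 18.2 CPM (4.19 ± 0.50, adjusted p = 1.807e-05). Gucy1b3 stood at 394, 182 and 269 CPM against 17.8, 26.8 and 18.6 CPM (3.64, adjusted p = 0.000131).

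The cyclic nucleotide phosphodiesterase Pde3a (225, 218 and 202 CPM in pericytes, at most 1.81 CPM in a basal library) and the G-protein regulator Rgs4 (225, 418 and 673 CPM, at most 0.970 CPM) were also higher. Their fitted log2 fold changes were 7.78 and 9.66 (adjusted p = 1.406e-06 and 2.719e-07). In all, 6 of 37 receptor-list genes were tested, 4 higher and 1 lower. Genes that passed the filter mainly through pericytes had to differ, so this count is no support by itself. The endothelin receptor Ednra was below the filter, at 113, 164 and 112 CPM in pericytes and 7.45, 7.25 and 11.3 CPM in basal cells.

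Of 33 channel and calcium genes 4 were tested. The calcium-activated chloride channel Ano1 was higher (394, 364 and 516 CPM against 162, 188 and 223 CPM, log2 fold change 1.15, adjusted p = 0.0123), a call that 9 of 16 alternatives did not keep, each library left out among them. The gap-junction protein Gja1 was lower (0, 145 and 89.7 CPM against 528, 356 and 292 CPM, -1.91, adjusted p = 0.0117; without library 3, adjusted p = 0.0713).

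Transcription factors of mural and mesenchymal cells were higher in pericytes for 8 of 14 tested genes and lower for 0, with 6 not called, beside 14.5% of all tested genes higher. Members near 0 in basal cells, such as Ebf1, Ebf2 and Zeb2, passed the filter through other classes and had to differ, so this count is no support by itself. Ebf1 stood at 1014, 1182 and 830 CPM against 0.573, 1.62 and 5.09 CPM in basal cells (log2 fold change 8.70, adjusted p = 2.729e-08). Zeb2, a repressor of epithelial genes, stood at 394, 400 and 269 CPM against at most 1.46 CPM. Nr2f2, a nuclear receptor of vessel and stromal cells, stood at 225, 309 and 471 CPM against 10.9, 11.3 and 8.0 CPM. Ebf2, Prrx1, Zfhx3 and Id3 were called too. Against fibroblast-like cells only Mef2c (log2 fold change 2.61) and Zfhx3 (1.61) of this list were called higher, and Klf4 was called lower (-1.695). The Zfhx3 call there was kept by 7 of 14 alternatives. Ebf1, Ebf2, Zeb2, Nr2f2 and Prrx1 thus did not set pericytes apart from fibroblast-like cells. Mef2c, the only regulator of smooth-muscle transcription called among 6 tested, stood at 282, 236 and 404 CPM against 43.0, 52.2 and 48.3 CPM (2.67, adjusted p = 3.706e-05). Myocardin (Myocd), the cofactor of serum response factor in smooth muscle, had only 0, 2 and 1 UMIs in pericytes and 4 in all basal cells.

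Pericyte genes outside the rule numbered 38, of which 10 passed the filter and all 10 were higher. Members near 0 in basal cells, such as Ndufa4l2, Rgs4 and Thy1, passed the filter through other classes and had to differ. The count is therefore no support by itself. Ano1, at a mean of 191 CPM in basal cells, was not near 0 there. Ndufa4l2 stood at 225, 436 and 314 CPM against at most 0.606 CPM, and the adhesion molecule Mcam at 282, 273 and 269 CPM against 35.0, 21.0 and 37.5 CPM (log2 fold change 3.23, adjusted p = 9.804e-05). The hypoxia-related factor Epas1 stood at 958, 491 and 583 CPM against 109, 82.5 and 95.5 CPM (2.76, adjusted p = 5.874e-06). In the PDGF and Notch list only the Notch target Hes1 could be tested of 24 genes. It was higher (338, 764 and 897 CPM against 324, 206 and 234 CPM, adjusted p = 0.0231), a call that 8 of 16 alternatives did not keep.

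Of 29 matrix genes tested against basal cells, 15 were higher and 2 lower in pericytes, beside 14.5% and 6.21% of all tested genes. Genes near 0 in basal cells, such as Sparcl1, Lama2 and Col15a1, passed the filter through other classes and had to differ. The count of higher genes is therefore no support by itself. Among members with under 2 fibroblast genes, where 15.1% of all genes were called, 7 were higher and 3 lower of 26. The laminin chain Lama2 (0, 14 and 2 UMIs) and the collagen Col15a1 (0, 26 and 5 UMIs) were called in all members but had no such call in the latter cells, where the fitted change was below 0. Fibronectin, Fn1, rested on library 2 (0, 31 and 2 UMIs) and was not called without it (adjusted p = 0.536). Genes called in both sets included the matricellular protein Sparcl1 (1070, 1272 and 2355 CPM against at most 6.67 CPM in basal cells), Igfbp7, Timp3 and the collagen VI chains Col6a1, Col6a2 and Col6a3. The epithelial laminin chain Lamb3 was lower, with 1, 3 and 1 UMIs in pericytes against 219, 293 and 340 CPM in basal cells (-2.77, adjusted p = 0.000379). The basement membrane collagens Col4a1 and Col4a2 were not called.

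Of 11 adhesion genes tested, 5 were lower in pericytes (6.21% of all tested genes were), 1, Mcam, was higher and 5 were not called, with a median log2 fold change of -0.26. Without library 1 the lower genes were 8 of 21, beside 175 of all 2508 tested genes. Without library 3 they were 3 of 11, beside 39 of 1302. The lower ones were the integrin Itga6, the hemidesmosome proteins Dst and Col17a1, and the desmosome genes Dsp and Perp. Itga6, which encodes the CD49f stained in the sort, had 4, 6 and 2 UMIs in pericytes and stood at 717, 842 and 698 CPM in basal cells (-2.83, adjusted p = 0.00205). Calls of Dsp and Perp were lost without library 3 (adjusted p = 0.181 and 0.0622), Dsp also without library 1 (0.0552) and Perp without library 2 (0.175).

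Of 15 myoepithelial and epithelial genes tested, 6 were lower and 1 higher, beside 6.21% and 14.5% of all tested genes. The rule set the classes apart by basal keratins, so genes that go with those keratins were bound to be lower. This count and that of the lower adhesion genes are therefore no support by themselves. Krt15 had 0 UMIs in every pericyte library and 379, 386 and 254 CPM in basal cells, at least 13.1-fold lower taking 3 UMIs over the group as the floor. The chemokine Cxcl14 stood at 56.3, 90.9 and 89.7 CPM against 1876, 1394 and 1905 CPM, and the galectin Lgals7 and the stratifin gene Sfn were lower too (-4.57 and -3.08). The mesenchymal filament gene Vim was higher (1.37, adjusted p = 0.0164), though not without library 2 (adjusted p = 0.533) or library 3 (0.232). Krt8, Krt18 and Epcam were not called in all members. In the cells with 3 or more markers they were lower than in basal cells.

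**Figure D4:**
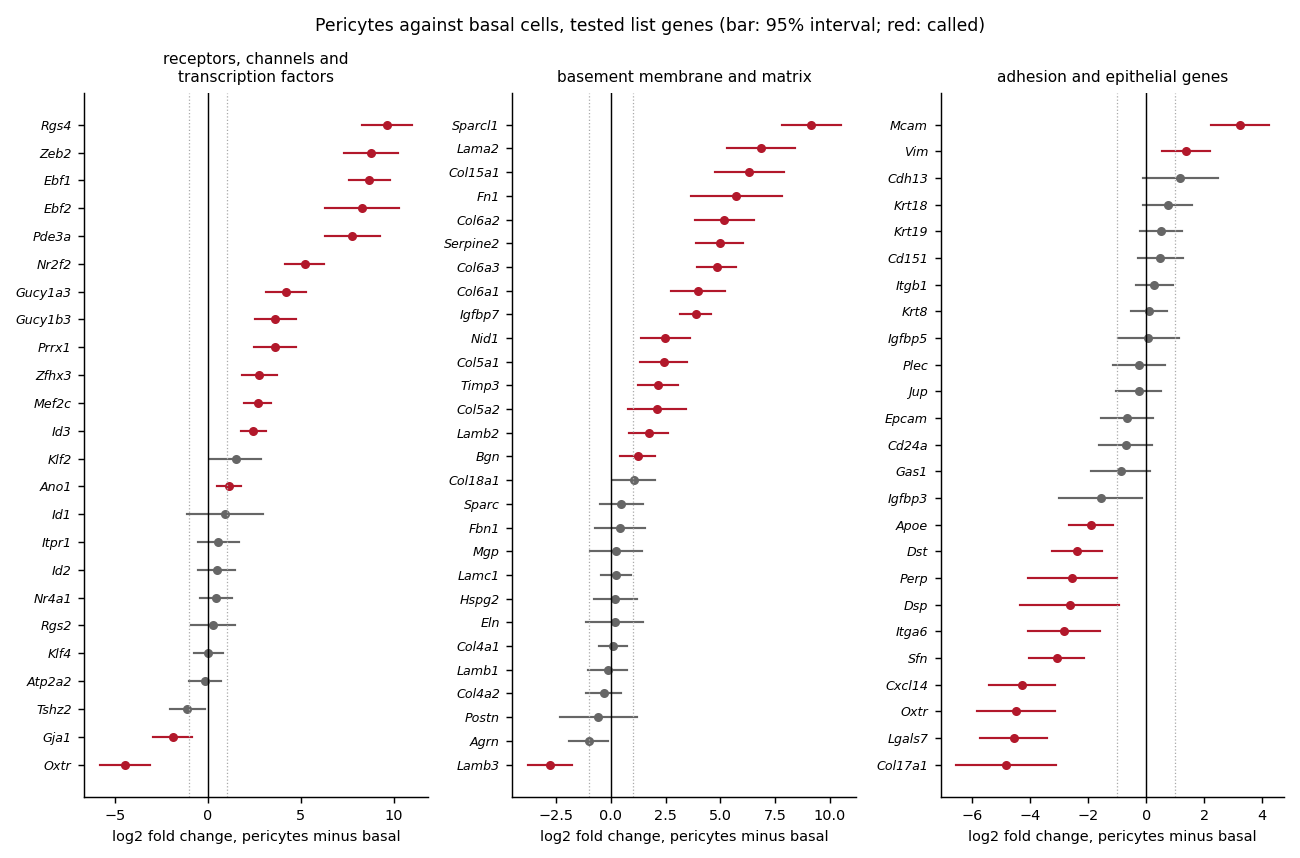
Log2 fold change, pericytes minus basal cells (x axis, with 95% intervals), of 24 receptor, channel and transcription factor genes, 28 matrix genes and 25 adhesion and epithelial genes; red marks called genes and dotted lines 2-fold. Oxtr lies at the bottom left, the guanylate cyclase subunits, Rgs4 and Pde3a at the right, and Lamb3 below the other matrix genes drawn; Krt15 is not drawn because it was at 0 in pericytes.

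Over all genes 247 of 1192 were called against basal cells, 173 (14.5%) higher and 74 (6.21%) lower. Among the largest differences outside the lists, the muscle gene Mustn1 (338, 582 and 897 CPM against at most 1.58 CPM) and the interferon-induced gene Ifitm1 (1014, 400 and 763 CPM against at most 4.00 CPM) were higher. Lower genes included the protease inhibitor Slpi (0, 5 and 2 UMIs against 5283, 1316 and 1904 CPM) and the cytokine Il17b (0, 7 and 1 UMIs against 322, 886 and 814 CPM).

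Against fibroblast-like cells, the other mesenchymal cells in the sort, many contractile genes were higher in pericytes. Of all 1187 tested genes 15.5% were called, 8.0% higher in pericytes and 7.5% lower. Filament genes were higher for 12 of 19 and lower for 0, with a median log2 fold change of 1.62 beside 0.02 over all genes. Myosin genes were higher for 6 of 12. Genes near 0 in fibroblast-like cells, such as Ppp1r14a and Lmod1, passed the filter through other classes and had to differ. Both counts are therefore no support by themselves. Without library 2 the filament and myosin counts were 8 of 19 and 4 of 12, beside 51 of all 1119 tested genes higher. Without library 3 they were 5 of 19 and 3 of 12, beside 25 of 1297. Acta2 stood at 0, 296 and 337 CPM in fibroblast-like cells (3.11, adjusted p = 0.000488), Tagln at 0, 96.3 and 27.5 CPM (3.77, adjusted p = 0.000106) and Myl9 at 177, 82.5 and 158 CPM (3.84, adjusted p = 6.423e-05). Ppp1r14a and Rgs4 had 0 UMIs there and were at least 56.5-fold and 48.0-fold higher in pericytes. Library 1 held only 3 fibroblast-like cells. The 184 calls became 303 of 2501 tested genes without library 1, 92 of 1119 without library 2 and 30 of 1297 without library 3. Acta2, Tagln, Myl9 and Myh11 were called in all 15 alternatives.

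Some genes were lower in pericytes, in a comparison with cells that fibroblast genes had themselves chosen. Igfbp6, an IGF-binding protein, had 0, 7 and 3 UMIs in pericytes and 64, 281 and 388 in fibroblast-like cells (log2 fold change -5.49, adjusted p = 0.000167), and the microfibril protein Mfap5 was lower by a similar test (-4.21, adjusted p = 0.000106). Matrix genes were lower for 11 of 29 and higher for 2, Sparcl1 and Serpine2, of which 11 of 15 and 12 of 14 alternatives kept the call. Without library 2 the matrix counts were 4 lower and 1 higher of 26, and without library 3 they were 0 and 0 of 29. Over all genes, 41 were lower and 51 higher of 1119 without library 2, and 5 and 25 of 1297 without library 3.

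Against endothelial-like cells, the other vessel cells, 25.7% of 1192 genes were called, 12.7% higher in pericytes and 13.0% lower. Filament genes were higher for 9 of 19 and lower for 1, the tropomyosin Tpm3 (adjusted p = 0.0437, kept by 7 of 15 alternatives), and myosin genes were higher for 4 of 12. Myh11 had 1, 2 and 2 UMIs in endothelial-like cells (4.95, adjusted p = 1.41e-05) and Acta2 stood at 316, 178 and 56.7 CPM (4.06, adjusted p = 7.924e-05). The water channel Aqp1 and the adhesion molecule Selp, among the largest differences, had 0 UMIs in pericytes and were at least 128-fold and 111-fold lower. Endothelial genes had themselves set these 2 classes apart, so other genes of endothelial cells were bound to be lower. Contractile genes near 0 in endothelial-like cells, such as Myh11, passed the filter through other classes and had to differ. The counts of higher filament and myosin genes are therefore no support by themselves. The 3 comparisons share the pericyte sums, so their values stand side by side and are not independent of each other.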

How the data were processed

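Single-cell RNA-seq was made with 10x Genomics v2 chemistry, per the labels' protocols. The authors deposited 1 table of raw UMI counts per library, with no normalization; the submitters' processing notes name Cell Ranger 2.1.0 and mm10. Totals were 18584156, 27220670 and 30984706 UMIs over 26845 barcodes and 19050 genes. Barcodes with at least 500 genes and under 10% mitochondrial UMIs were kept.

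Counts were summed per library and class. Fibroblast-like cells had at least 3 of 7 fibroblast genes, and endothelial-like cells at least 3 of the 6 endothelial genes. All 4 classes were fitted together with edgeR 4.0.16 (R 4.3.3; quasi-likelihood, two-sided, TMM, filterByExpr, library as block); the 24 rule genes were not tested. Calls needed at least a 2-fold change and an adjusted p (Benjamini-Hochberg) under 0.05. Each library's classes were sorted as 1 suspension, which pairs them; deviations of pericytes and basal cells correlated at 0.246, 0.159 and 0.183 within libraries and from -0.256 to 0.187 between them. DESeq2 1.42.0 and Scrublet (scanpy 1.11.5) served as alternatives. Scripts were tested on simulated data. Named genes are list genes and those with the largest called changes in 1 direction in all libraries, with at least 20 CPM in the higher class. Members and lists were chosen with earlier results of these data known. One tested matrix gene is counted but not reported here by name or drawn. Ratios for low counts have exact 95% intervals covering counting error only. Gene symbols are those of the deposited tables (Gucy1a3 is Gucy1a1 in RefSeq).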

Additional observations from a re-analysis of the deposited data

How the results depend on the processing

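Few cells limit these results: 7 pericytes and 3 fibroblast-like cells in library 1, where 1 UMI is 56.3 CPM in pericytes. Calls against basal cells numbered 247 of 1192 tested genes. With no filter on low counts they numbered 685 (366 higher, 319 lower) of 17831, and with only the 2 classes fitted 664 of 9853. Without libraries 1, 2 and 3 they were 451 of 2508, 142 of 1123 and 151 of 1302. The median log2 fold change of all tested genes, 0.01, became -0.99 with no filter, -0.51 with only the 2 classes and -0.10 with DESeq2 size factors. Against fibroblast-like cells 184 of 1187 became 301 of 17824 with no filter and 82 of 708 with only the 2 classes. Without libraries 1, 2 and 3 they were 303 of 2501, 92 of 1119 and 30 of 1297. Scaling by total counts alone gave 123 higher and 68 lower in place of 95 and 89, with the median of all genes at 0.24. Against endothelial-like cells 306 of 1192 became 357 of 2508, 194 of 1123 and 198 of 1302 without libraries 1, 2 and 3. Without the replicate block, calls were 231, 139 and 277. The share of pericytes fell from 0.239% to 0.133% with at least 3 markers, 0.148% with under 2 fibroblast genes and 0.112% with at least 1000 genes. The share of pericytes with Acta2, averaged over libraries, was 65.7% at 1000 UMIs, 76.1% without thinning and 35.6% at 2000 UMIs, where 18 cells remained. Most of those 18 carried the fibroblast or epithelial genes described above. Against basal cells Col15a1 and Lama2 reversed to -5.44 and -4.00 with under 2 fibroblast genes, and to -5.45 and -4.03 in the 30 cells with neither fibroblast nor epithelial genes, an alternative chosen after seeing the data. Against fibroblast-like cells Krt8 and Krt18 reversed to -0.22 and -0.28 with at least 3 markers, -0.96 and -0.37 with under 3 epithelial UMIs and -0.92 and -0.48 in the 30 cells. Against endothelial-like cells Krt8 reversed to -0.45 and -0.47 in the last 2 sets. The cause of these reversals was not tested. Of the named genes' values against basal cells, 1217 had the same outcome, called or not called, as in the main fit. A call was lost in 43 and gained in 19, and 4 reversed in sign.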
